A study of Mus musculus with 5 samples.

Results

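The ubiquitin machinery outside the TRIM ligases was examined in mouse bone marrow mesenchymal stem cells (MSC), comparing cells grown alone with cells exposed to activated T cells. The members are genes whose symbol starts with Usp, Rnf, Ube2, Ube3, Fbxo, Fbxw, Fbxl, Cul followed by a number, Ubr, Otud or Herc, with Usp18 left out. This rule found 49 genes, measured by 77 probe sets, among the 2190 named genes of the deposited table, and each gene was read from its brightest probe set, by the mean of the 5 arrays. They comprised 9 conjugating enzymes, 13 RING ligases, 5 HECT or N-recognin ligases, 5 F-box substrate receptors, 3 cullins and 14 deubiquitinases, with roles assigned by symbol.

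The control group was MSC alone, a primary culture of mouse bone marrow in Mesencult medium, on 3 arrays. The other group was MSC of the same kind of culture kept for 48 h across a transwell membrane from purified T cells, added in a ratio of 10 to each MSC and stimulated by antibodies to CD3 and CD28, on 2 arrays. The membrane lets soluble products pass and keeps the cells apart. The strain and age of the mice are not given in the sources used here, and the labels call the arrays biological repetitions without saying whether animals or cultures were separate, so p-values measure the spread between these samples.

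Ubiquitin is passed from an activating enzyme (E1) to a conjugating enzyme (E2), and a ligase (E3) then brings the loaded E2 to a substrate. Most RING ligases hold the E2 beside the substrate, and HECT ligases carry ubiquitin themselves for a moment. Cullins are scaffolds that take up exchangeable receptors such as the F-box proteins. Deubiquitinases remove or trim the chains, and the shape of a chain decides whether a protein goes to the proteasome or takes part in signalling. Interferon adds a parallel route in which the ubiquitin-like protein ISG15 is attached by its own E1, E2 and E3.

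The table was selected on the same comparison. On all 3373 of its probe sets the co-culture arrays lay both above or both below every array of MSC alone, with a gap of at least 0.34 on the log2 scale. Genes outside it were not analysed here. Of 20 listed MSC and stromal markers 10 were in the table, 3 higher and 7 lower in co-culture, with a mean log2 level of 10.27 to 10.50 on the control arrays and of 9.37 and 9.19 after co-culture. Of 22 macrophage and monocyte markers 2 were in the table, Mpeg1 and Ctss, and both were higher in co-culture, with a mean log2 level of 3.74 to 4.24 in MSC alone against 8.03 and 7.35 in co-culture. Of 20 T cell, 8 endothelial and 8 B cell and granulocyte markers 0 were in the table. The part of such cells in the values below was not tested. In these bulk samples fewer cells of a type and less RNA per cell cannot be told apart.

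Of the 49 members, 28 were higher and 21 lower after co-culture. The limma test (Benjamini-Hochberg adjusted p below 0.05 over all genes of the table) called 49 of 49 members, but it called 100% of the 2190 genes, because the table holds only genes whose groups do not overlap (100% of genes). The call of a member therefore carries no information beyond its presence in the table, and with 3 arrays against 2 an exact permutation test could not give a p under 0.1. Among all genes 48.3% were higher and 51.7% lower, against 57.1% of the members higher. Differences of at least 2-fold upward were found in 15 members (30.6%, against 26.3% of all genes), and of at least 2-fold downward in 16 (32.7%, against 35.0% of all genes). Centring each array on its median moved the difference between the groups by 0.16. The members at least 2-fold higher and lower then numbered 20 (40.8%, against 33.0% of all genes) and 14 (28.6%, against 28.4%). Of the members past 2-fold 58.8% were then higher, against 53.8% of all genes past 2-fold. Before centring 48.4% of such members were higher, and of all genes 577 were at least 2-fold higher and 767 lower. The share thus rose with centring in the whole table too. The directions of all 49 were kept. The median absolute difference was 1.22 over the members and 1.13 over all genes, on the log2 scale.

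**Figure D1:**
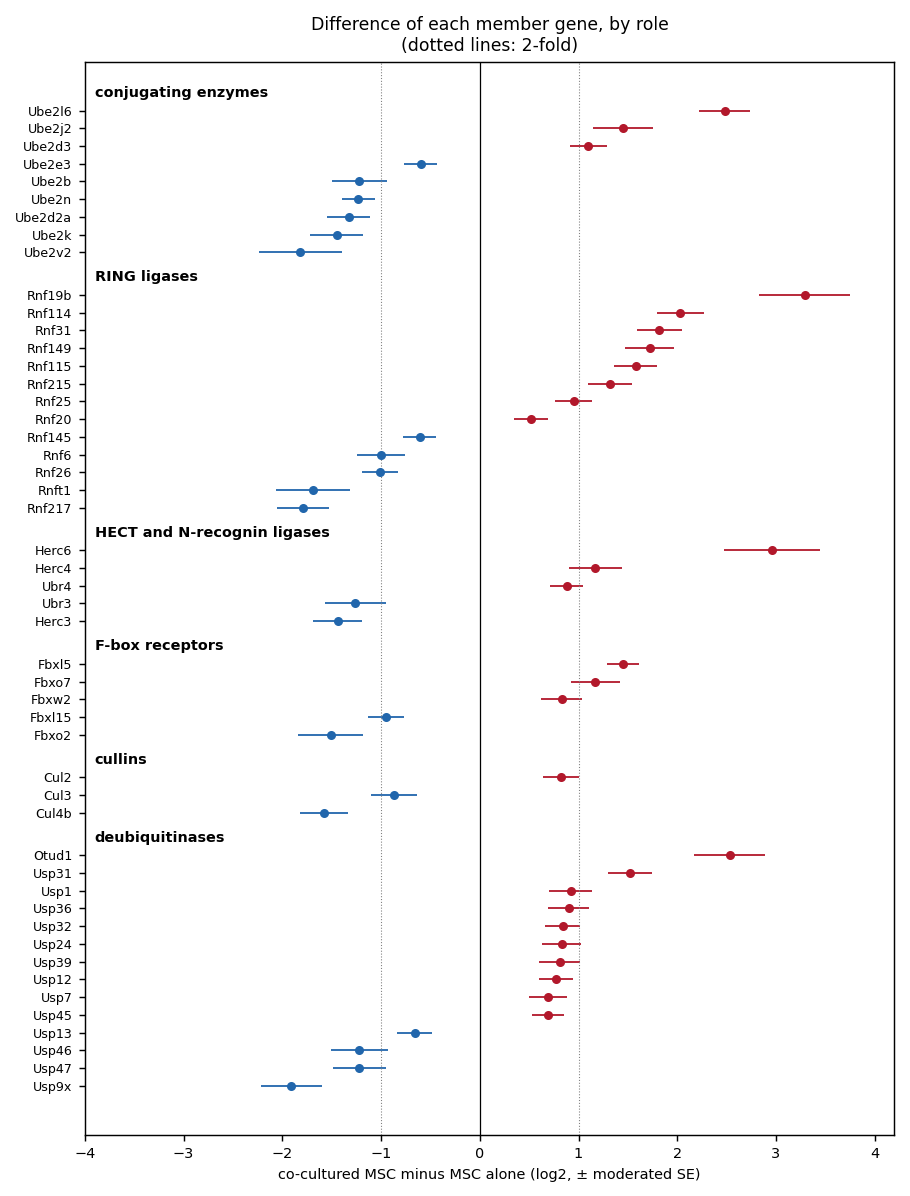
Difference between co-cultured MSC and MSC alone of each of the 49 member genes on the log2 scale (horizontal axis), grouped by role, with bars of 1 moderated standard error; red points were higher in co-culture (28 genes) and blue points lower (21 genes). The largest rises were those of Rnf19b (3.29), Herc6 (2.96), Otud1 (2.53) and Ube2l6 (2.48), and the largest falls those of Usp9x (-1.91) and Ube2v2 (-1.82).

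The counts by role describe a selected table, and no difference between roles was tested. Of the conjugating enzymes 3 were higher and 6 lower, with a median difference of -1.22 on the log2 scale. Of the 13 RING ligases 8 were higher (median over all 13, 0.95), and of the HECT and N-recognin ligases 3 of 5 (median 0.88). The F-box receptors had 3 of 5 higher (median 0.83), the cullins 1 of 3 (median -0.87) and the deubiquitinases 10 of 14 (median 0.79). The median over all genes was -0.61, with 48.3% of them higher. No difference in the table lies within 0.34 of 0, so a median, here and below, takes the sign of the commoner direction. A small difference in the share of higher genes can therefore move it from one side of 0 to the other. A change of at least 2-fold in either direction was found in 63.3% of the members and 61.4% of all genes. By role it was 88.9% of the conjugating enzymes, 80.0% of the HECT and N-recognin ligases and 76.9% of the RING ligases. It was 60.0% of the F-box receptors, 35.7% of the deubiquitinases (5 of 14) and 33.3% of the cullins (1 of 3).

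Of the conjugating enzymes, Ube2l6, which carries ISG15 to its substrates, had the largest difference. On the log2 scale, and with arrays in the order of their replicate numbers as in all values below, it read 5.58, 5.42 and 5.04 in MSC alone and 7.56 and 8.10 in co-culture. The difference was 2.48 ± 0.26 (SE), or 5.59-fold, with the smallest adjusted p of the members (0.00163 in limma). MSC replicate 3 was the lowest control, and the gap to the nearest co-culture array was several times the spread among the controls. Ube2j2, an E2 anchored in the endoplasmic reticulum that serves the disposal of misfolded proteins, read 6.91, 6.99 and 6.84 in MSC alone and 7.89 and 8.83 in co-culture, a difference of 1.45 ± 0.30 (SE). Its controls were tight and its co-culture arrays stood 0.94 apart.

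Ube2v2 and Ube2n encode partners, a catalytically inactive E2 variant and the active enzyme it binds, which together build chains used in DNA repair and immune signalling rather than in degradation. Both were lower. Ube2v2 read 6.78, 6.65 and 7.53 in MSC alone and 5.75 and 4.59 in co-culture, a fall of 3.52-fold in which co-culture replicate 2 lay 1.15 below replicate 1. Ube2n read 6.18, 6.03 and 5.93 in MSC alone and 4.79 and 4.83 in co-culture, a 2.35-fold fall. It had little spread in either group (SD 0.13, n = 3, and 0.03, n = 2), but its co-culture values lay at a low level where RMA compresses differences. The second probe set of Ube2v2 was 2.78-fold lower.

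Ube2k, which extends degradative chains, read 5.63, 5.77 and 6.40 in MSC alone and 4.47 and 4.48 in co-culture, a difference of -1.45 ± 0.27 (SE). Ube2d2a, an E2 of the broadly acting UBCH5 type, read 9.57, 9.19 and 9.72 in MSC alone and 8.24 and 8.08 in co-culture, 2.52-fold lower. In both genes MSC replicate 3 was the highest array and the co-culture arrays lay close together, those of Ube2k at a low level. Ube2b, a homologue of yeast RAD6 that acts in DNA damage tolerance and histone ubiquitination, was 2.33-fold lower. Ube2e3 was 1.51-fold lower, a difference of -0.60 that was -0.52 without co-culture replicate 2.

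For Ube2d3, a near relative of Ube2d2a, the direction depended on the probe set. Its brightest probe set read 12.27, 12.50 and 12.45 in MSC alone and 13.34 and 13.67 in co-culture, a difference of 1.10 ± 0.19 (SE). Another probe set was also higher, by 0.93, and the third read 7.98, 7.83 and 8.57 against 7.17 and 6.98, a difference of -1.05. The groups did not overlap on any of them, as on all 3373 probe sets of the table. The mean over the 3 probe sets differed by 0.33 and did not pass the threshold (adjusted p 0.120 in limma).

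Of the RING ligases, Rnf19b, a RING-in-between-RING ligase first described in the lytic granules of natural killer cells, had the largest difference of all members. It read 8.79, 9.04 and 7.68 in MSC alone and 11.43 and 12.17 in co-culture, a rise of 3.29 ± 0.46 (SE), or 9.80-fold. Its range in MSC alone, 1.37, was the widest of the 49 members, because replicate 3 lay well below the others, yet the lowest co-culture array stood 2.38 above the highest control, the widest separation of the members. The other probe set rose 8.60-fold, and there too MSC replicate 3 was lowest.

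Rnf114, a zinc finger RING ligase, read 9.48, 10.07 and 9.58 in MSC alone and 11.59 and 11.90 in co-culture, a 4.09-fold rise. Its other probe sets rose by 2.34 and 2.19 on the log2 scale. Rnf31 encodes HOIP, the catalytic subunit of the complex that builds linear ubiquitin chains in NF-kB signalling. Its values of 7.46, 7.64 and 7.13 in MSC alone and 9.06 and 9.41 in co-culture gave a rise of 1.82 ± 0.23 (SE), or 3.54-fold. Rbck1, an accessory subunit of the same complex, was 0.60 higher (8.31, 8.38 and 8.14 against 8.98 and 8.78). Cyld, a deubiquitinase that removes linear chains among others, was 0.62 higher. Without co-culture replicate 1 the differences were 0.50 for Rbck1 and 0.59 for Cyld. The call of Cyld rests on the number of arrays: without MSC replicate 1 its adjusted p in limma was 0.0660. Sharpin, the other accessory subunit, was not analysed here.

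The other RING genes that were higher were Rnf149 (3.28-fold), Rnf115 (2.99-fold), Rnf215 (2.50-fold), Rnf25 (1.93-fold) and Rnf20 (1.43-fold). Rnf20 encodes a ligase that adds a single ubiquitin to histone H2B, working with the RAD6 homologues such as the product of Ube2b. It had the smallest rise, 0.52 ± 0.17 (SE), the narrowest separation of the groups (0.38) and the highest adjusted p of the members (0.0197 in limma). The call was lost without MSC replicate 1 (adjusted p 0.0750 in limma) and without MSC replicate 2 (0.0694). Without co-culture replicate 1 the difference was 0.46.

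Of the 5 RING genes that were lower, Rnf217, a RING-in-between-RING ligase tied to degradation of the iron exporter ferroportin, had the largest fall. It read 6.22, 6.47 and 6.21 in MSC alone and 4.87 and 4.16 in co-culture, 3.45-fold lower, and its second probe set was 1.66 lower on the log2 scale. Rnft1, a ligase of the endoplasmic reticulum membrane, read 8.73, 8.75 and 9.45 in MSC alone and 7.78 and 6.79 in co-culture, 3.22-fold lower, against 1.75-fold on its other probe set. In Rnft1 the spread was wide in both groups, with MSC replicate 3 highest and co-culture replicate 2 lowest. Rnf26, another membrane ligase of the endoplasmic reticulum, read 9.56, 9.42 and 9.76 in MSC alone and 8.62 and 8.52 in co-culture, 2.02-fold lower. Rnf6 was 2.00-fold lower, and Rnf145, a sterol-responsive ligase, was 1.53-fold lower.

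**Figure D2:**
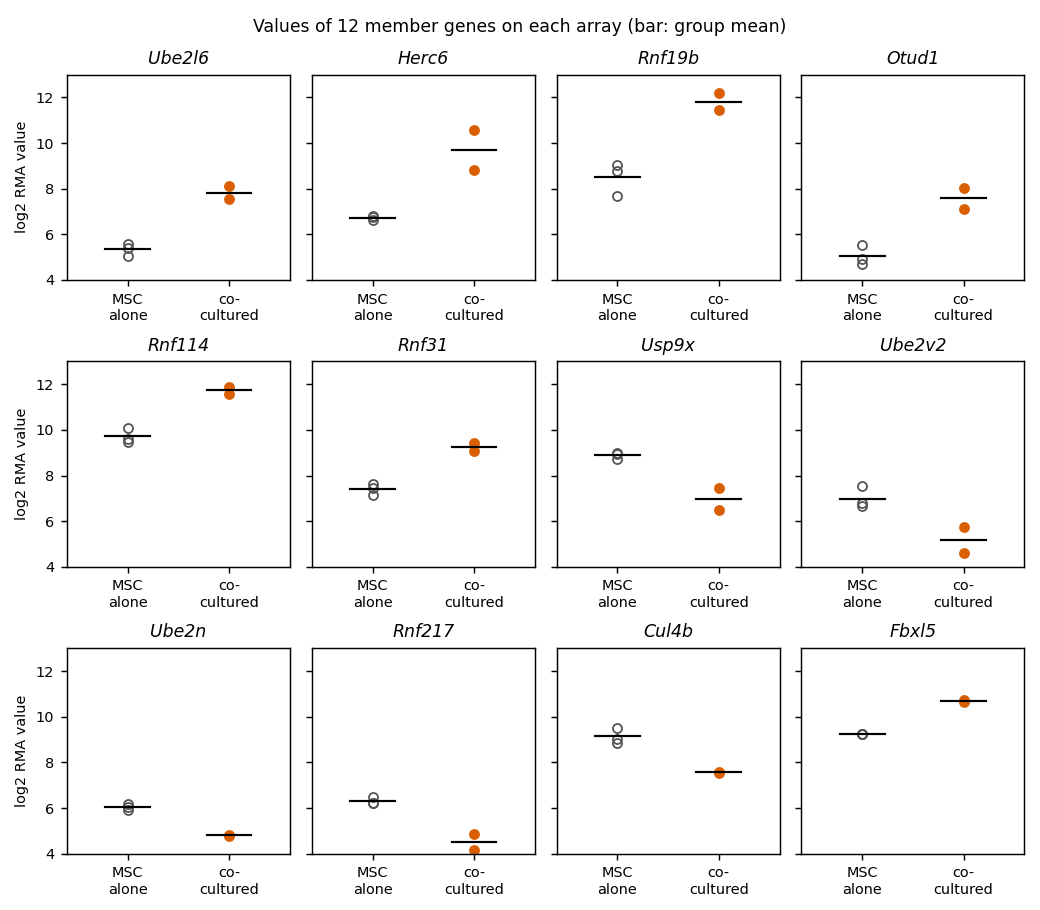
Log2 RMA values (vertical axis, the same scale in every panel) of 12 member genes on each array, with open circles for the 3 arrays of MSC alone, filled circles for the 2 arrays of co-cultured MSC and a bar at each group mean. Herc6 has tight controls and co-culture arrays 1.77 apart, Rnf19b has 1 low control (7.68), and in Ube2n, Cul4b and Fbxl5 the co-culture arrays lie within 0.10 of each other.

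Among the HECT ligases, Herc6, known in the mouse as the main ligase for ISG15, read 6.63, 6.78 and 6.76 in MSC alone and 10.57 and 8.80 in co-culture, a rise of 2.96 ± 0.49 (SE), or 7.80-fold. The control arrays agreed within 0.15, and the co-culture arrays differed by 1.77, the widest gap of the members, with replicate 1 higher. The fold therefore depended on single arrays: it was 4.22 when co-culture replicate 1 was left out and 14.4 when replicate 2 was, the only member in which leaving out 1 array moved the fold by over 1.5 times. Its other probe sets rose 13.8-fold and 8.48-fold, and both were also higher in co-culture replicate 1 (10.50 against 9.82, and 8.70 against 6.98).

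Herc6 and Ube2l6 supply the E3 and the E2 for ISG15, and Uba7 its E1. Uba7 was also higher, at 7.33, 7.47 and 6.33 in MSC alone and 9.48 and 9.15 in co-culture, a difference of 2.27 ± 0.37 (SE). Usp18, the protease that removes ISG15, read 6.24, 6.16 and 6.08 in MSC alone and 9.85 and 8.75 in co-culture, an 8.83-fold rise. The arrays ranked differently in co-culture: Herc6, Uba7 and Usp18 were higher in replicate 1, and Ube2l6 in replicate 2. Isg15 itself was not analysed here. The macrophage markers Mpeg1 and Ctss, given above, were likewise higher in co-culture replicate 1, and their part in these genes was not tested.

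Herc4 read 4.59, 4.61 and 4.88 in MSC alone and 5.47 and 6.26 in co-culture, 2.25-fold higher, at a low level where RMA compresses differences. Herc3, of the same family of small HERC ligases, went the other way, at 6.20, 6.60 and 6.19 in MSC alone and 4.60 and 5.19 in co-culture, 2.71-fold lower. The pair of Ubr genes encodes ligases linked to the N-degron pathway, which reads the first residue of a protein. Ubr4 read 9.51, 9.25 and 9.30 in MSC alone and 10.26 and 10.21 in co-culture, 1.84-fold higher. Ubr3 read 8.48, 8.41 and 8.43 in MSC alone and 7.69 and 6.67 in co-culture, 2.40-fold lower. In Ubr3 the controls agreed within 0.08 and the co-culture arrays differed by 1.02, with replicate 2 the lower.

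The F-box proteins are the receptors of SCF ligases, built on the cullin CUL1. Fbxl5, whose protein senses iron and marks the iron regulatory protein IRP2 for degradation, read 9.25, 9.25 and 9.23 in MSC alone and 10.64 and 10.74 in co-culture, a rise of 1.45 ± 0.16 (SE). Its range in MSC alone, 0.03, was the narrowest of the members. Fbxo7 read 7.61, 7.61 and 8.03 in MSC alone and 8.65 and 9.18 in co-culture, 2.24-fold higher. Fbxw2 read 7.70, 8.01 and 7.53 against 8.46 and 8.70, a difference of 0.83 (0.99 on its other probe set).

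Fbxo2, a receptor that recognises glycoproteins sent back from the endoplasmic reticulum, read 6.48, 6.98 and 7.54 in MSC alone and 5.60 and 5.38 in co-culture, 2.85-fold lower. Its controls spanned 1.06, more than the 0.88 between its lowest control and the nearest co-culture array. Fbxl15 read 7.02, 7.01 and 6.82 in MSC alone and 6.13 and 5.86 in co-culture, 1.94-fold lower, and its spread was small in both groups.

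Of the cullins, Cul4b, a scaffold that takes its receptors through DDB1, read 9.04, 8.87 and 9.52 in MSC alone and 7.58 and 7.53 in co-culture, 3.00-fold lower. Cul3, the scaffold of the BTB-domain receptors, read 7.68, 7.62 and 8.09 in MSC alone and 7.11 and 6.75 in co-culture, a difference of -0.87 ± 0.23 (SE). Its other probe sets were lower by similar amounts (-1.01 and -0.80). Without co-culture replicate 2 the difference on its brightest probe set was -0.69. Cul2, the scaffold of the VHL ligase, was the higher one, at 9.75, 9.73 and 9.98 in MSC alone and 10.59 and 10.68 in co-culture, a rise of 1.76-fold. In Cul4b and Cul3 MSC replicate 3 was the highest array.

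Of the deubiquitinases, Otud1, of the ovarian tumour domain family, had the largest difference. It read 4.90, 5.53 and 4.69 in MSC alone and 7.12 and 8.01 in co-culture, a rise of 2.53 ± 0.36 (SE), or 5.76-fold. Both groups were spread by over 0.8, and the lowest co-culture array was still 1.59 above the highest control. The control values of Otud1 lay at a low level where RMA compresses differences. Usp31 read 5.33, 5.54 and 5.45 in MSC alone and 6.71 and 7.22 in co-culture, 2.88-fold higher, with smaller rises on its other probe sets (2.22-fold and 1.51-fold). Among the Usp genes kept by the rule, no other was at least 2-fold higher on its brightest probe set.

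Usp1, which deubiquitinates PCNA and FANCD2 in DNA repair, read 9.68, 9.84 and 10.18 in MSC alone and 10.69 and 10.95 in co-culture, 1.90-fold higher. Its other probe sets were 2.14-fold and 2.33-fold higher. Usp12 and Usp46 are close paralogues, and both bind the cofactor UAF1 that also activates the product of Usp1. Usp12 was 1.71-fold higher (7.57, 7.40 and 7.32 against 8.19 and 8.22), and Usp46 was 2.32-fold lower (8.31, 7.89 and 8.58 against 7.36 and 6.74). The other USP genes that were higher, Usp24, Usp32, Usp36, Usp39, Usp45 and Usp7, rose between 1.61-fold and 1.86-fold. Usp39 is a spliceosome component without deubiquitinase activity, counted here with the deubiquitinases by its symbol, and Usp36 acts in the nucleolus.

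Usp9x, a large X-linked deubiquitinase of many substrates, had the largest fall of the members. It read 8.98, 8.71 and 8.96 in MSC alone and 7.46 and 6.49 in co-culture, a difference of -1.91 ± 0.31 (SE). All 3 of its probe sets in the table were lower, by 3.76-fold, 5.99-fold and 3.01-fold. In each of them co-culture replicate 2 lay below replicate 1. Usp47, linked to base excision repair, read 11.07, 10.70 and 10.33 in MSC alone and 9.69 and 9.29 in co-culture, 2.32-fold lower. Usp13 was lower by 1.58-fold.

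Usp7, which stabilises MDM2 and so bears on p53, gave opposite results on its probe sets. The brighter read 6.28, 6.64 and 6.42 in MSC alone and 7.17 and 7.09 in co-culture, a difference of 0.69, and the other read 6.22, 6.12 and 6.05 against 5.46 and 5.57, a difference of -0.62. Their mean differed by 0.03 (adjusted p 0.847 in limma). Usp45 agreed in direction and not in size: the brightest probe set was 0.69 higher, another was 0.73 higher, and the dimmest, at 5.43, 5.72 and 5.71 against 7.57 and 7.61, was 1.97 higher.

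**Figure D3:**
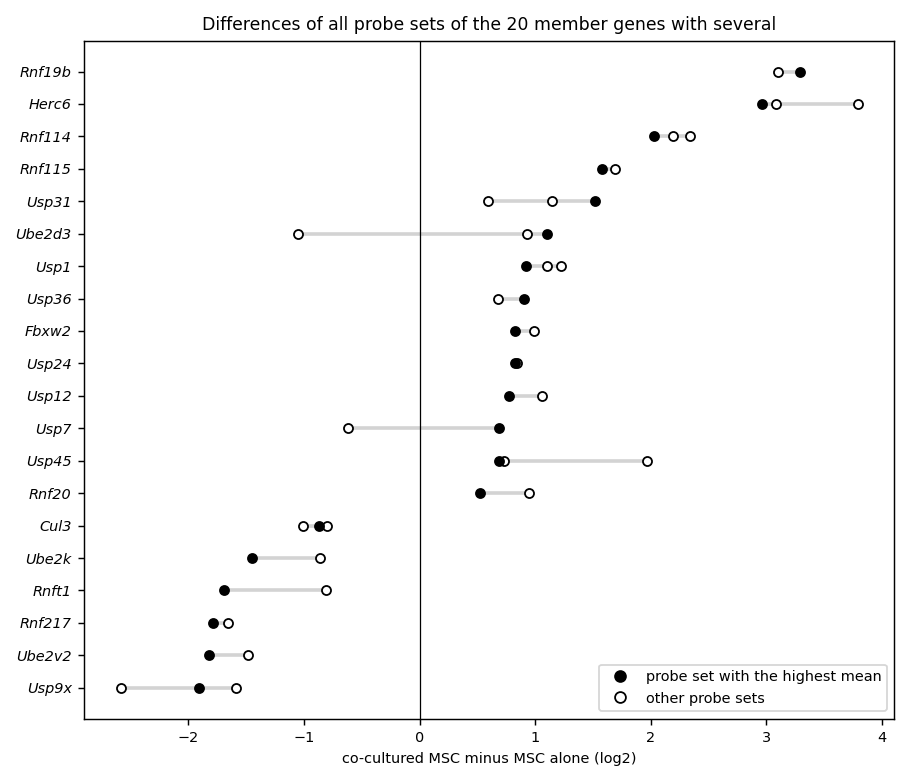
Difference between co-cultured MSC and MSC alone (horizontal axis, log2) of every probe set of the 20 member genes with several, with a filled circle for the probe set with the highest mean, open circles for the others and a grey line over their range. The points lie on one side of 0 in 18 genes, and Ube2d3 (from -1.05 to 1.10) and Usp7 (from -0.62 to 0.69) straddle it.

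Of the 20 members with more than 1 probe set, 2 (10.0%) had probe sets of opposite direction, against 40 of 588 genes (6.80%) in the whole table. In 3 members, Ube2d3, Usp7 and Usp45, the probe sets differed by over 1 on the log2 scale. Rnf114, Rnf26, Ube2k and Usp45 were read from probe sets with the suffix _s_at or _x_at, which may cross-hybridise to related transcripts, and their values are uncertain on that account. The plot of probe set differences shows how far each gene's value depends on which of its probe sets in the table is chosen. Probe sets whose groups overlap are absent from the table. The agreement among the probe sets of a gene, here and above, may therefore understate that dependence.

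The co-culture arrays were not equally far from MSC alone. Among the members that were higher, co-culture replicate 2 lay above replicate 1 in 23 of 28 (82.1%, against 69.0% of all higher genes), and among those that were lower it lay below replicate 1 in 17 of 21 (81.0%, against 78.2%). The exceptions among the higher members were Herc6, Rnf20, Ubr4, Usp36 and Usp7. MSC replicate 3 was the highest control in 11 of the 21 lower members (52.4%, against 49.1% of all lower genes) and the lowest in 11 of the 28 higher ones (39.3%, against 50.4%). MSC replicate 1 was the lowest control in 13 of the 28 higher members (46.4%, against 35.3%). The median range was 0.34 over the controls and the median gap between the co-culture arrays was 0.34, while the groups were separated by a median of 0.72.

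**Figure D4:**
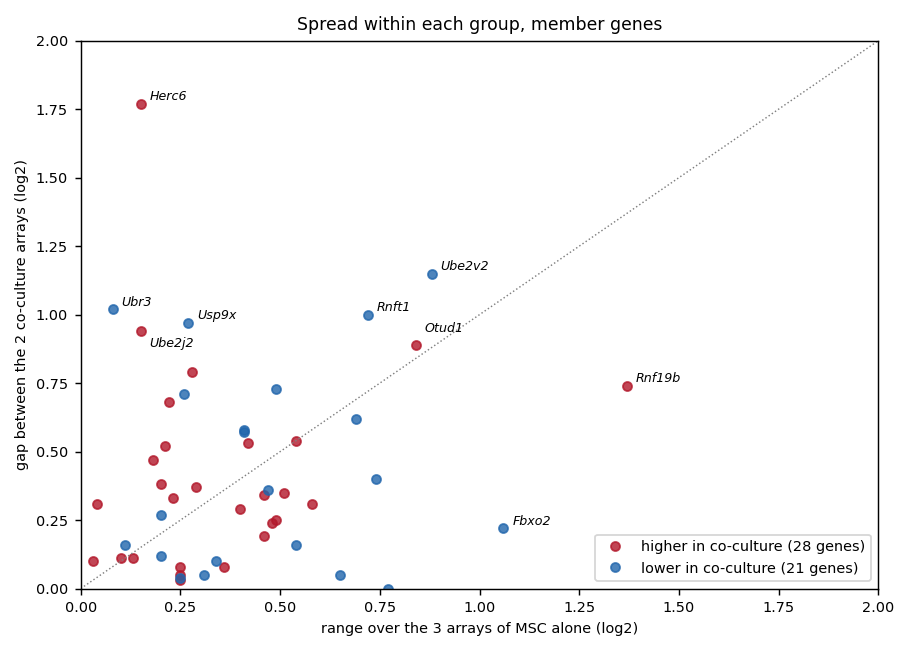
Range over the 3 arrays of MSC alone (horizontal axis, log2) against the gap between the 2 co-culture arrays (vertical axis, log2) for the 49 members, red where higher and blue where lower in co-culture; the dotted line marks equal spread. Herc6 (0.15 and 1.77) and Ubr3 (0.08 and 1.02) vary mostly in co-culture, and Rnf19b (1.37 and 0.74) and Fbxo2 (1.06 and 0.22) mostly in MSC alone.

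Promoter sequences were set beside these values because activated T cells release interferon-gamma, whose signal reaches genes through gamma-activated sites (GAS), and because ISG15 pathway genes are known targets of interferon-stimulated response elements (ISRE). RefSeq promoters (build GRCm38.p6, 250 bases before to 50 after each listed start) were matched for 39 of the 49 members. An ISRE core, written as GAAA, any 2 bases and GAAA, was searched on both strands and found in 3 of 39 members (7.69%, against 3.99% of the 27025 genes of the promoter table). The letters TTCNNNGAA, a GAS, which read the same on both strands, were found in 3 of 39 (7.69%, against 9.55%). The motifs share no member here, and 166 genes of the table hold both. A match is a description of letters and not a binding site. Shown are the 5 members with a match before the start, 30 bases each, 5′ to 3′ on the gene's strand, with the match in capitals. The ISRE matches read on the opposite strand.
Fbxo7, ISRE core, chr10:86021964-86021993, + strand: agctccttgcTTTCGGTTTCttcccggggc
Fbxl15, ISRE core, chr19:46328062-46328091, + strand: ctctccccctTTTCTTTTTCcaaagtcgct
Rnf115, GAS, chr3:96727422-96727451, + strand: ccatcgccccTTCTTAGAAgtagagcacca
Ube2d3, GAS, chr3:135438445-135438474, + strand: ttctcgatgcTTCTCTGAAtttaagggttt
Rnf26, GAS, chr9:44113087-44113116, - strand: tgtaaaagtcTTCCCTGAAgcccacttctg

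The matches fell on both directions of change: Fbxo7, Rnf115 and the brightest probe set of Ube2d3 were higher in co-culture, and Fbxl15 and Rnf26 were lower. In Fbxo7 the match lies at -180 to -171 from 1 of 2 listed starts, and in Ube2d3 at -25 to -17 from 1 of 4. The remaining ISRE match, in Rnf20, lies after the start. Neither set of letters was found in the windows of Rnf19b, Herc6, Otud1 and Ube2l6, the 4 members with the largest rise. The 100 bases before the listed starts of 3 of them are shown so that these strongly changed genes can be set beside the matches above.
Ube2l6, chr2:84798728-84798827, + strand: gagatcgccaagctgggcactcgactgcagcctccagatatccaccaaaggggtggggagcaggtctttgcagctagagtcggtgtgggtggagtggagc
Herc6, chr6:57580892-57580991, + strand: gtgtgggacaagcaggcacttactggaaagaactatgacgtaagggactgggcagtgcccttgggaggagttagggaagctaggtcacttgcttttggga
Rnf19b, chr4:129058044-129058143, + strand: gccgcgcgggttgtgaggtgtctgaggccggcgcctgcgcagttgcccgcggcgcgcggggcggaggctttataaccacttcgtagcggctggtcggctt

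Around the members, 3 of 24 listed genes for ubiquitin, ubiquitin-like proteins and activating enzymes were in the table. Ubd, a ubiquitin-like modifier that sends proteins to the proteasome, was higher by 5.65 ± 0.38 (SE) from a low level (4.06, 3.73 and 3.75 against 8.87 and 10.12), 77.2-fold if co-culture replicate 1 is left out and 32.5-fold if replicate 2 is. Uba6, an E1 that charges both ubiquitin and the product of Ubd, was lower, at 8.48 and 8.09 in co-culture against 9.05, 8.90 and 9.23 in MSC alone. Its difference was -0.78, and -0.58 without co-culture replicate 2.

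Of 57 listed partners of SCF ligases, cullins and the COP9 signalosome 9 were measured, 2 higher and 7 lower, with a median of -1.03. Eloc, encoding elongin C, the adaptor that joins receptors to CUL2, read 7.54, 7.28 and 7.72 in MSC alone and 5.95 and 5.28 in co-culture, 3.73-fold lower, while Cul2 was higher. Cand1, an exchange factor that lets cullins swap receptors, was 2.05-fold lower and its paralogue Cand2 3.20-fold lower (4.94-fold if co-culture replicate 1 is left out and 2.08-fold if replicate 2 is). Klhl24, a BTB-domain receptor for CUL3, was higher by 1.41.

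Of 62 listed proteasome genes, shuttle factors and p97 partners 16 were measured, 13 higher and 3 lower, with a median of 0.80. The 3 immunoproteasome subunit genes led: Psmb9 by 4.80 ± 0.29, Psmb8 by 4.16 ± 0.76 (3.35 without MSC replicate 3) and Psmb10 by 2.43 ± 0.53 (SE). Psmc6, a base ATPase of the standard proteasome, was lower by 4.72-fold (7.18-fold and 3.11-fold with co-culture replicate 1 or 2 left out). Psma3, Psma5 and Psma7, subunits of the core's outer rings, were higher by 0.56, 0.67 and 0.79, and the call of Psma3 was lost without MSC replicate 1 or 2 (adjusted p 0.0593 and 0.0518 in limma). Of 42 listed deubiquitinases and related proteases outside the members 6 were measured, 5 higher and 1 lower, with a median of 0.83. Psmd7 and Uchl5, both of the proteasome, were higher by 1.05 and 0.86, and Mindy2 was lower by 1.74-fold. Without co-culture replicate 2 the difference of Psmd7 was 0.76. Of 104 listed ligases outside the members 35 were measured, 22 higher and 13 lower, with a median of 0.95. Dtx3l, an interferon-inducible ligase, was higher by 3.29 (2.53 without MSC replicate 3, which read 5.96 against 8.19 and 8.29 in the other controls). Uhrf1, which takes part in maintaining DNA methylation, was lower by 4.15-fold. All of these passed the limma threshold, as did 100% of genes, so the counts describe the table.

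**Figure D5:**
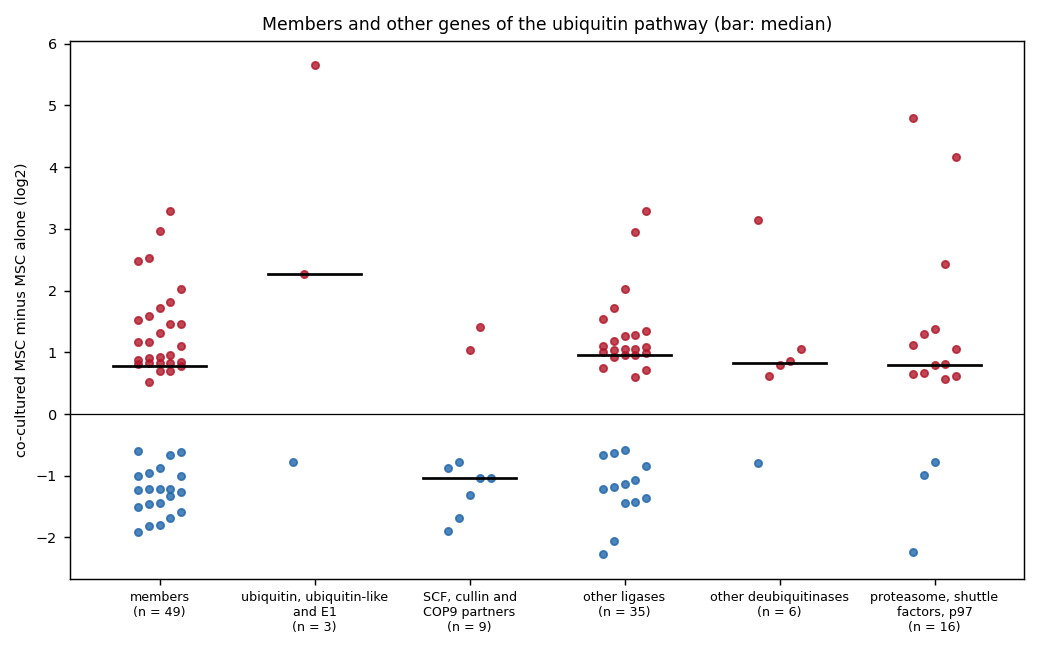
Difference between co-cultured MSC and MSC alone (vertical axis, log2) of the 49 members and of the measured genes of 5 other lists of the ubiquitin pathway, with 1 point per gene, red where higher and blue where lower, and a bar at each median. The members (median 0.77) spread on both sides of 0, the partners of SCF and cullin ligases lie mostly below it (median -1.03), and Ubd (5.65) is the highest point.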

How the data were processed

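RMA, named without a version in the submitters' processing notes, was used by the authors to make the deposited log2 value of each probe set. RMA corrects background, quantile-normalises arrays and summarises probes, and gives no detection call. The array's platform annotation gave 1 gene symbol for 3013 of 3373 probe sets, several for 69 and none for 291, and the symbols of all 49 members matched RefSeq through their Entrez identifiers. Groups and replicate numbers came from the sample titles. A gene was read from its brightest probe set.

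The test was limma 3.58.1 (R 4.3.3), lmFit and eBayes over all 2190 genes and 5 arrays, without covariates or filter, two-sided, Benjamini-Hochberg adjusted, threshold 0.05. SE is limma's moderated standard error, SD is over arrays, and the number of arrays limits the precision. Because the table holds only genes with separated groups, differences may be too large and errors too small. The fit was tested on simulated data.

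Members and lists were chosen with earlier results of these data known. Per-array values were set to be given for up to 3 rises and 3 falls in each role, and for members whose probe sets or co-culture arrays disagreed or that act on ISG15 or linear chains, with others by fold. Ube2n, the partner of Ube2v2, and Usp12, the paralogue of Usp46, were added after their values were seen. Genes named from the pathway lists beyond the 4 largest of each were chosen after their values were seen. Tried alternatives were leaving out each array, the replicate number as a block, centring, a dim filter, other spread models, more tests and other probe sets. Protein sequences were not used here.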

Additional observations from a re-analysis of the deposited data

How the results depend on the processing

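The counts of members higher and lower, 28 and 21, stayed within 1.5 times under all alternatives tried except the number of tests. Every gene of the table has separated groups, so such refits could hardly lose calls, and the stable counts say nothing particular about the members. Adjusted as if 15 times as many features had been tested, limma called 4 members higher (Fbxl5, Rnf114, Rnf31 and Ube2l6) and 0 lower. Among all genes it called 101 higher and 88 lower (8.63%). An unadjusted p under 0.05 in limma was reached by 28 higher and 21 lower members, and by every gene of the table. Leaving out each array of MSC alone in turn gave 27 to 28 higher and 21 lower members, while 93.7% to 100% of all genes were called. Without a co-culture array the lone array left was assumed to vary like the controls. From those fits only differences and folds are given, without counts or p-values. With the replicate number as a block both counts were again 28 and 21, and 100% of all genes were called. MSC replicate 3 has no co-culture array of its number, so it did not enter the differences of that fit. The deviations of same-numbered arrays correlated at 0.22 and 0.31 over genes, with 2 pairs only. In a group of 2 arrays the deviation of one mirrors that of the other, so the 2 values are not separate. Whether same-numbered arrays share more than a number cannot be told from them. Read from the dimmest probe set, Ube2d3 and Usp7 reversed, to -1.05 and -0.62. The difference of Ube2e3 was -0.52 without co-culture replicate 2, against -0.60 with all arrays. Without the dimmest 25% of probe sets 40 members remained measured, and without _s_at, _x_at and _a_at probe sets 46. Values near the floor of the array are compressed, and without detection calls their folds are least certain. Such values include those of Herc4, Rnf25, Otud1 and Ubd in MSC alone. In co-culture the low values of Ube2n, Ube2k, Ube2v2, Rnf217, Herc3 and Usp13 are under the same limit.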

Other observations

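Of the 7 listed ligases of the NEDD4 family 5 were measured, and 3 were higher: Smurf1, an antagonist of BMP and TGF-beta signalling, by 2.94 ± 0.53 (SE; 7.89, 8.84 and 6.99 in MSC alone and 10.58 and 11.11 in co-culture), Nedd4l by 1.09 and Smurf2 by 1.03. Nedd4 was lower, at 12.47, 12.27 and 11.69 in MSC alone and 11.16 and 10.29 in co-culture. Wwp1 was 0.59 lower on the log2 scale, a call lost without MSC replicate 1 (adjusted p 0.0593 in limma). All 3 listed genes of the CBL group, Cbl, Cblb and Cbll1, were higher, by 1.19, 1.10 and 1.00. These families were singled out after their values were seen, and 100% of the genes in the table passed the same threshold.

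Of 14 listed genes of the anaphase-promoting complex, the ligase that drives exit from mitosis, 6 were measured. Anapc1, its largest subunit, was 4.83-fold lower (8.37-fold without co-culture replicate 1 and 2.79-fold without replicate 2), and Cdc26, Anapc13 and Anapc5 were also lower. Cdc27 and Anapc11 were higher, by 1.06 and 0.72. Without co-culture replicate 2 the differences of Anapc13 and Anapc5 were -0.54 and -0.50, against -0.84 and -0.67 with all arrays.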
